A study of Mus musculus with 20 samples.

Results

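The superior olivary complex (SOC) of mice is described here across genes from embryonic day 16 (E16) to the day of birth (P0). Its samples are the libraries whose titles name the SOC and either of these ages, 4 at E16 and 4 at P0, which makes 8 of the 20 libraries of the study. The others are 3 SOC libraries of postnatal day 16 (P16) and 9 libraries of the cochlea. Changes are given as P0 relative to E16, so that a positive value is higher at birth.

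The SOC is a group of nuclei in the hindbrain that compares the input of both ears for the localisation of sound. Much of its circuitry is inhibitory and uses glycine, and in the immature brain also GABA, which excite young neurons until the chloride exporter Slc12a5 (KCC2) lowers the chloride of the cell. Neurons of the SOC are born well before birth, whereas astrocytes and oligodendrocytes arise from progenitors late in gestation and mature after it.

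All 8 libraries were made from untreated wild-type C57Bl6/J mice of both sexes, and every library was a pool of several animals. At P0 the brain was taken out before the SOC was collected. At E16 the heads were frozen whole and the region was cut out of cryosections, so these pieces could hold skull, ear, muscle and skin. Total RNA depleted of ribosomal RNA was sequenced and counted per gene. The labels give the cell type as neuronal, but the tissue was not sorted, and fewer cells of a type cannot be told apart from less RNA per cell. The labels number the pools and give no litter or day, so p-values measure the spread between these pools.

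The libraries held 20843679 to 26448021 counts, which makes 3 counts worth 0.113 to 0.144 CPM, a gene's share of its library's counts scaled to parts per 1000000. A gene listed at 0 in libraries 1 to 3, or in library 4, may have been left out of a joined table, which allows up to 20 counts or 0.756 to 0.960 CPM (counting error only). Genes that mark cartilage, bone, muscle, inner ear, skin, blood and other tissues outside the brain (10 lists, 174 genes tested) summed to 1.91 to 3.07% of the counts in the E16 libraries and to 0.191 to 0.319% in the P0 libraries. At birth, library 4 stood apart: 18 genes of the forebrain, among them Neurod6, summed to 480.2 CPM in it and to 180.2 to 232.1 CPM in P0 libraries 1 to 3. Neurod6 was at 18.3, 24.3, 20.2 and 155.1 CPM in P0 libraries 1 to 4. The forebrain list was lowest in E16 library 4, at 99.7 CPM.

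**Figure D1:**
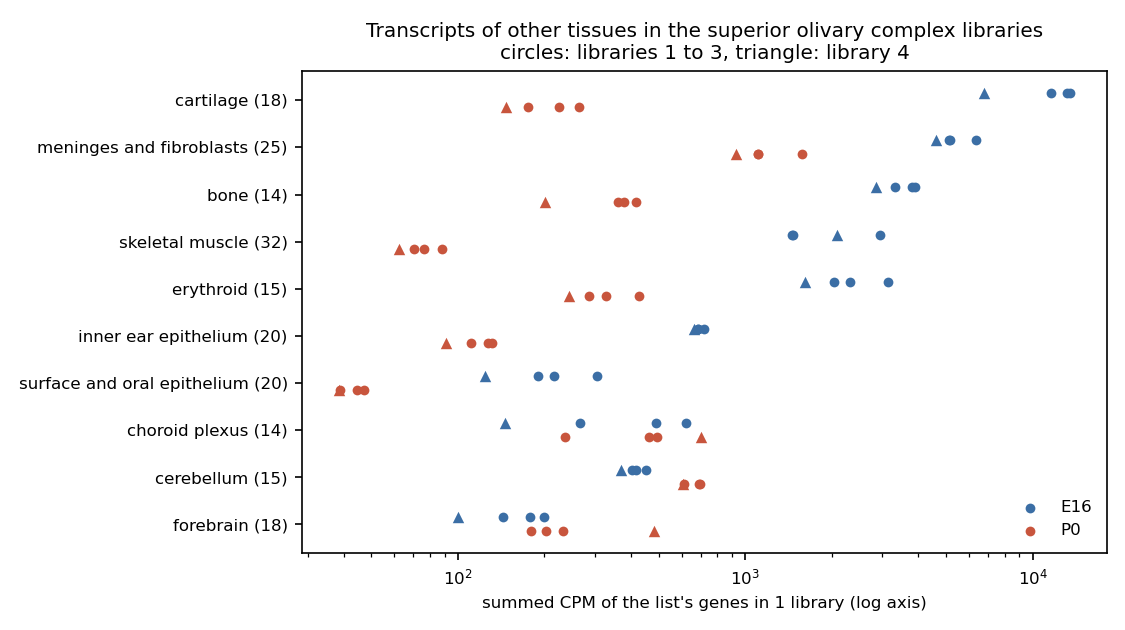
Summed CPM (horizontal, log axis) of 10 lists of genes that mark other tissues, in each of the 4 E16 libraries (blue) and 4 P0 libraries (red), with library 4 of each age as a triangle and the number of genes tested in parentheses. Cartilage lay at 6767 to 13541 CPM at E16 and at 146.9 to 264.5 CPM at P0, and the forebrain list was highest in P0 library 4. The forebrain list is not part of the 10 lists of tissues outside the brain that the text sums.

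The labelled region was checked against patterning genes of the hindbrain. Of 12 tested genes of this list, most of them Hox genes, none was called in either direction by the edgeR quasi-likelihood test (2 had an unadjusted p under 0.05), and 1 was called lower by DESeq2 and 1 on the axon scale that is described further on. Hoxa2, which patterns the rhombomeres that give rise to much of the SOC, was at 18.4 ± 1.94 CPM at E16 and 10.9 ± 2.55 CPM at P0 (SD, n = 4). Its libraries did not overlap, but the change was under the fold required (log2 fold change -0.72, adjusted p 0.0048, edgeR). Of the 12 genes 9 had a log2 fold change below 0. Summed over the list, P0 library 4 was lowest, at 47.5 CPM against 68.2 to 90.8 CPM in P0 libraries 1 to 3. The E16 libraries lay at 70.6 to 128 CPM. Hindbrain transcripts were thus present in every library, in unequal amounts and beside those of other tissues at E16.

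In total 16588 genes were tested. A gene was called when its adjusted p was under 0.01 (Benjamini-Hochberg), it changed over 2.5-fold and the libraries of both ages did not overlap. At birth 550 genes were called higher (3.32% of those tested) and 1148 lower (6.92%). The higher genes had a median log2 fold change of 1.75, and 36 of them changed over 8-fold. The lower genes had a median of -2.11, and 314 of them changed over 8-fold. Separation of the libraries alone held for 2478 genes in the higher and 3451 genes in the lower direction.

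The scale of these values matters to what is called. The 25 genes of growing axons and the neuronal cytoskeleton had a median log2 fold change of 0.53, against -0.03 for all genes. When the P0 libraries were scaled so that the median of the axon list was 0, a choice made after the data were seen, 187 genes were called higher (1.13%) and 2098 lower (12.6%), and the median of all genes moved to -0.56. All 187 were also called higher without this scaling, and all 1148 genes called lower without it were also called lower with it. Counts on the axon scale are given beside a list where they differ from the first, and fold changes of single genes are on the first scale.

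Astrocyte genes rose most often. Of 35 tested genes of the astrocyte list 21 were called higher and 1 lower, with a median log2 fold change of 1.77, and 16 and 1 were called on the axon scale. Summed over the list the E16 libraries lay at 3077 to 3662 CPM, P0 libraries 1 to 3 at 10742 to 12454 CPM and P0 library 4 at 7252 CPM. P0 library 4 was the lowest P0 library for most astrocyte genes named here, and without it 23 were called higher.

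Gfap (ENSMUSG00000020932, mm10 chromosome 11, 102887336 to 102900912), the intermediate filament of astrocytes, was at 1.17, 0.923, 1.36 and 0.989 CPM in E16 libraries 1 to 4 and at 124.1, 87.1, 133.6 and 64.1 CPM in P0 libraries 1 to 4. The ages were far apart in every pool, 93.6-fold on average (log2 fold change 6.55, SE 0.317, adjusted p 6.82e-08), and Gfap had the largest rise of all named genes. Agt, which encodes angiotensinogen, was at 2.30, 1.61, 1.67 and 1.12 CPM at E16 and at 107.6, 109.2, 178.0 and 49.5 CPM at P0 (log2 fold change 6.08, SE 0.374, adjusted p 2.93e-07). Both genes were close to 1 CPM before birth. Aqp4, the water channel of astrocyte endfeet, was already at 24.4 to 47.1 CPM at E16 and reached 498.2 to 581.0 CPM at P0 (log2 fold change 4.09, adjusted p 1.39e-07). It was at 1137 CPM at P16.

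Gpr37l1, an orphan receptor of astrocytes, went from 1.13 to 1.80 CPM at E16 to 22.6 to 55.0 CPM at P0 (log2 fold change 4.72, adjusted p 1.61e-07). Ntsr2, a neurotensin receptor that astrocytes express, went from 0.601 ± 0.186 to 8.36 ± 3.27 CPM (SD, n = 4). Apoe, the lipid carrier of glia, was at 284.8, 206.3, 272.1 and 175.0 CPM at E16 and at 1911, 1638, 2009 and 852.2 CPM at P0 (log2 fold change 2.81, SE 0.247, adjusted p 4.3e-06). Sparcl1 (hevin), a matricellular protein, and Aldoc, an aldolase, also rose, with log2 fold changes of 1.80 and 2.01. Their P0 means were 1851 ± 364.6 and 763.7 ± 196.2 CPM.

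Other genes that define astrocytes did not pass all criteria. Slc1a3 (GLAST), a glutamate transporter that radial glia also make, was at 422.4 ± 48.4 CPM at E16 and 751.9 ± 56.9 CPM at P0, a log2 fold change of 0.87 with an adjusted p of 0.000107 by edgeR, under the fold required. The log2 fold changes of Slc1a2 (GLT-1), Aldh1l1, Kcnj10 and Glul lay between 1.08 and 1.28, and their libraries of both ages did not overlap. Gja1 (connexin 43) was at 0.48 and S100b at 0.90. Slc1a2 stood at 282.5 CPM at P0 and 3107 CPM at P16, and Kcnj10 at 10.7 and 288.4 CPM. Sox9, a factor of both glial progenitors and cartilage, was the only member called lower. It went from 49.3 to 72.7 CPM at E16 to 9.69 to 11.3 CPM at P0 (log2 fold change -2.52, adjusted p 2.64e-07, edgeR). Cartilage genes fell in the same libraries, and their part in the change of Sox9 was not tested.

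**Figure D2:**
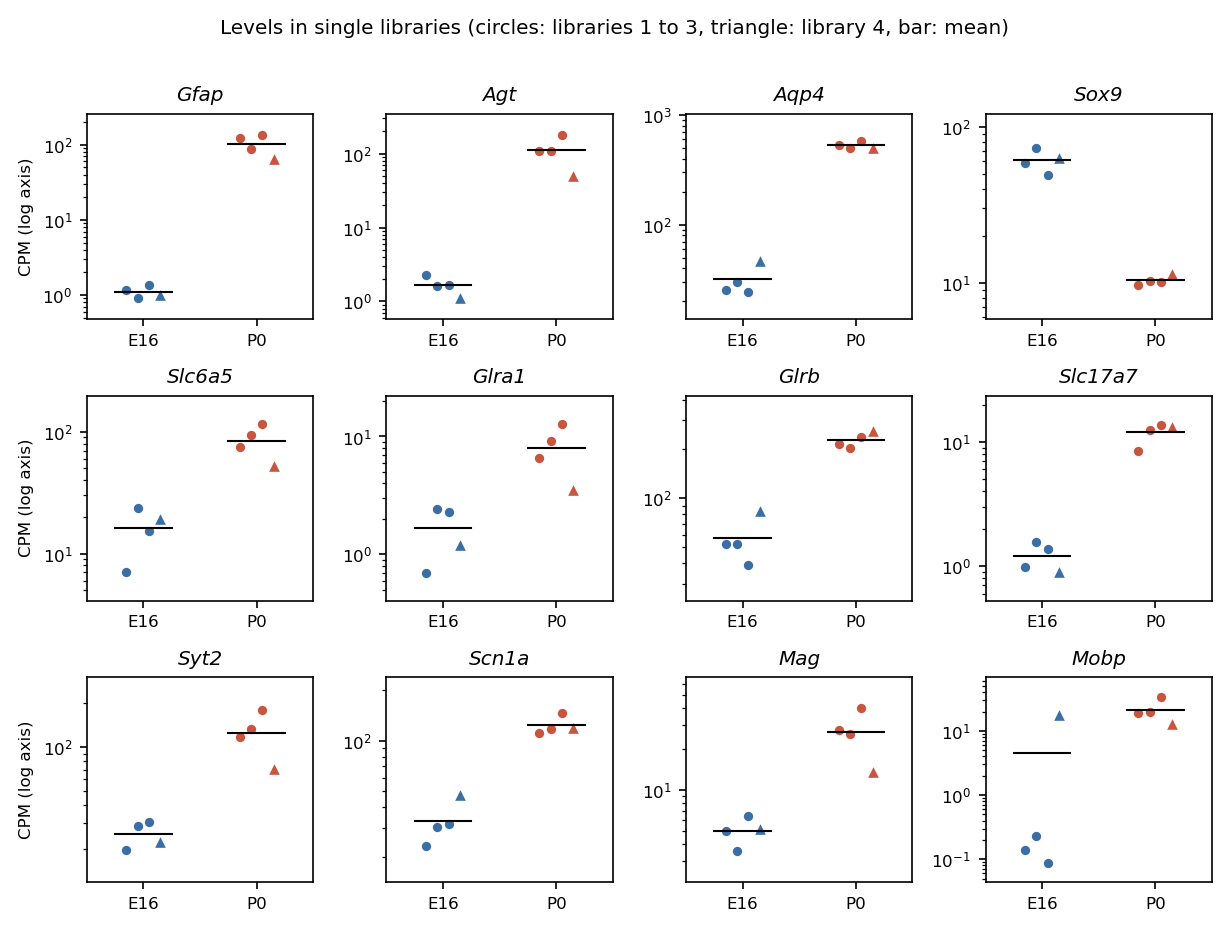
CPM (vertical, log axis) of 12 genes in the 4 E16 libraries (blue) and the 4 P0 libraries (red), with library 4 as a triangle and the mean as a bar. Gfap, Agt and Aqp4 rose without overlap, Sox9 fell, and Mobp was at 17.8 CPM in E16 library 4 and under 0.3 CPM in the other E16 libraries.

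Genes of glycine and GABA transmission were the neuronal list with the largest share of calls. Of 31 tested members 15 were called higher and none lower, with a median log2 fold change of 1.47, and on the axon scale 6 were higher. The sum of the list was 1916 to 2307 CPM at E16 and 4308 to 5484 CPM at P0. Slc6a11 (GAT-3), a GABA transporter that is also on the astrocyte list, was among those that rose.

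The glycine transporter Slc6a5 (GlyT2; ENSMUSG00000039728, mm10 chromosome 7, 49910146 to 49963856), which loads the terminals of glycinergic neurons, was at 7.08, 23.5, 15.4 and 19.1 CPM at E16. At P0 it was at 75.5, 93.4, 114.8 and 51.9 CPM (log2 fold change 2.40, SE 0.330, adjusted p 0.000122). The lowest P0 library was library 4, still above every E16 library. At P16 Slc6a5 was at 520.4 CPM. The vesicular transporter of both transmitters, Slc32a1 (VGAT), was at 16.9 ± 7.29 CPM at E16 and at 46.2 ± 20.2 CPM at P0, but P0 library 4, at 20.3 CPM, lay within the E16 range and the gene was not called (adjusted p 0.00716, edgeR).

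Among the glycine receptor subunits, Glra1, the adult alpha subunit, was at 0.703, 2.45, 2.29 and 1.20 CPM at E16 and at 6.62, 9.20, 12.8 and 3.52 CPM at P0 (log2 fold change 2.31, SE 0.396, adjusted p 0.000635). Glra3 went from 4.13 to 14.1 CPM to 32.7 to 38.4 CPM (log2 fold change 2.15). The beta subunit Glrb, which anchors the receptor to gephyrin, was at 52.6, 52.6, 39.0 and 84.0 CPM at E16 and at 214.3, 201.5, 235.7 and 257.1 CPM at P0 (log2 fold change 2.03, adjusted p 5.62e-05). The fetal alpha subunit Glra2 was at 108.2 ± 21.7 CPM at E16 and 188.7 ± 30.6 CPM at P0 and was not called (log2 fold change 0.84, adjusted p 0.00347).

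Per kb of exon, the order of the alpha subunits did not change over this step. Glra2 was at 34.3 CPM per kb at E16 and 59.9 at P0, above Glra3 with 0.888 and 3.88 and Glra1 with 0.688 and 3.33. The libraries of Glra1 and Glra3 overlapped at either age. Glrb went from 12.3 to 48.8 CPM per kb. In CPM, Glra2 was at 30.7 and Glra1 at 78.2 at P16.

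On the GABA side, Gad2, an enzyme that makes GABA, rose from 30.7 ± 5.95 to 100.5 ± 22.2 CPM (log2 fold change 1.75, adjusted p 2.06e-05), while Gad1 was at 81.2 ± 6.27 and 160.1 ± 6.12 CPM and stayed under the fold required (log2 fold change 1.02). The receptor subunits Gabra5, Gabrb1, Gabrg1 and Gabrg3 and the metabotropic subunit Gabbr2 rose, with log2 fold changes of 1.45 to 2.11. Gabra5 was at 25.8 to 38.6 CPM at E16 and at 104.4 to 125.3 CPM at P0, and at 44.5 CPM at P16. Gabrb1 was at 80.0 CPM at P0 and at 102 CPM at P16.

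Of the chloride transporters 1 was called. The exporter Slc12a5 was at 112.7, 144.4, 159.6 and 67.7 CPM at E16 and at 363.9, 413.1, 458.4 and 182.0 CPM at P0 (log2 fold change 1.59, SE 0.293, adjusted p 0.00105), and it was not called on the axon scale. The importer Slc12a2 (NKCC1) was at 135.0 ± 30 CPM at E16 and 100.3 ± 17.4 CPM at P0 (log2 fold change -0.39, adjusted p 0.151). Library 4 was the lowest for Slc12a5 and the highest for Slc12a2 at both ages. Whether their changes differed was not tested.

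**Figure D3:**
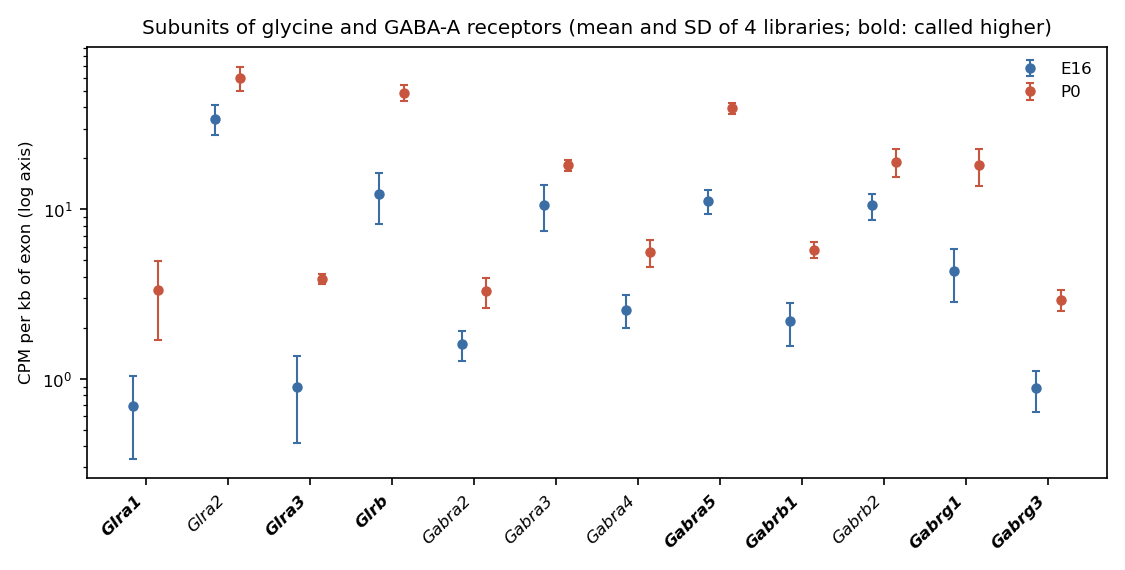
CPM per kb of exon (vertical, log axis) of 12 subunits of glycine and GABA-A receptors at E16 (blue) and P0 (red), as means and SD of 4 libraries, with subunits that were called higher in bold. Glra2 lay above Glra1 and Glra3 at both ages, and Glrb rose from 12.3 to 48.8.

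Of 34 genes of glutamate transmission 6 were called higher and none lower (median log2 fold change 0.93), and all 34 had a value above 0. On the axon scale 1 was called, and without P0 library 4 the count was 10. The gene that stood out was Slc17a7 (VGLUT1), a vesicular glutamate transporter, at 0.984, 1.57, 1.36 and 0.903 CPM at E16 and 8.40, 12.6, 13.7 and 13.3 CPM at P0 (log2 fold change 3.36, SE 0.212, adjusted p 3.44e-07). Slc17a6 (VGLUT2), the form of immature synapses, was far higher at 189.0 ± 44.7 and 402.5 ± 12.8 CPM and did not reach the fold required (log2 fold change 1.12). Slc17a8 (VGLUT3), which young neurons of the sound localisation pathway use, was at 14.7 ± 3.96 and 16.3 ± 1.48 CPM.

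The NMDA receptor subunit Grin1, which every such receptor holds, rose from 30.1 ± 9.23 to 100.5 ± 39.4 CPM (log2 fold change 1.78, adjusted p 0.000481), and Grin2c rose from 1.49 ± 0.365 to 4.41 ± 1.02 CPM. The metabotropic receptors Grm3 and Grm5 rose with log2 fold changes of 1.46 and 1.48. The AMPA receptor subunits Gria1, Gria2, Gria3 and Gria4 were not called, with log2 fold changes of 0.48 to 1.16. The glutamate list gave calls for 17.6% of its tested members and the inhibitory list for 48.4%, a difference that was not tested.

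Of 51 voltage-gated channel genes 13 were called higher and none lower (median log2 fold change 0.91), and 4 on the axon scale. The sodium channel subunits Scn1a and Scn4b rose, with log2 fold changes of 1.93 and 2.04. Scn1a went from 33.1 ± 10.1 to 123.2 ± 15.4 CPM. Scn4b, which supports fast resurgent current, went from 1.10 to 1.39 CPM to 2.5 to 7.13 CPM, and stood at 286.4 CPM at P16.

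The low-threshold potassium channels Kcna1 and Kcna2 rose too, Kcna1 from 3.00, 6.32, 4.70 and 4.30 CPM to 9.45, 13.8, 16.1 and 7.64 CPM (log2 fold change 1.39, adjusted p 0.000924). It fell under the fold required without E16 library 1, P0 library 2 or P0 library 3 (log2 fold changes 1.24, 1.31 and 1.21), and stood at 336.5 CPM at P16. The high-threshold channels of the Kv3 family were mixed, with Kcnc4 called higher (log2 fold change 1.76) and Kcnc1 and Kcnc2 not called at 0.91 and 1.04.

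Of 33 genes of synaptic vesicle release 10 were called higher and none lower (median log2 fold change 1.11), 2 of them on the axon scale. Vamp1 (synaptobrevin 1) was at 11.5, 18.4, 15.9 and 11.7 CPM at E16 and at 78.0, 92.0, 118.4 and 49.7 CPM at P0 (log2 fold change 2.60, SE 0.236, adjusted p 5.46e-06). Syt2, the calcium sensor of fast brainstem synapses, was at 19.8, 29.0, 30.7 and 22.4 CPM and then at 116.6, 133.2, 178.7 and 70.7 CPM (log2 fold change 2.33, adjusted p 1.31e-05). Their relatives that prevail in the forebrain, Vamp2 and Syt1, were not called, with log2 fold changes of 0.98 and 1.28. Syp, Sv2b, Syt12, Cplx1, Syngr1, Syn1, Syn2 and Snap25 completed the calls at 1.38 to 1.77. Vamp1 and Syt2 stood at 565.4 and 557.0 CPM at P16.

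Of 20 genes for calcium-binding proteins and calcium-dependent kinases 7 were called higher (median log2 fold change 1.20), 1 on the axon scale, with Vsnl1 first (log2 fold change 2.08). Camk4, a kinase of the nucleus, went from 92.6 ± 25 to 300.3 ± 39.8 CPM. Pvalb (parvalbumin), a marker of mature auditory brainstem neurons, was at 15.9 to 20.9 CPM at E16 and 4.50 to 10.7 CPM at P0, without overlap but under the fold required (log2 fold change -1.12). It was called lower on the axon scale, and it was at 215.9 CPM at P16. Muscle also expresses Pvalb, and muscle genes summed to 1457 to 2940 CPM at E16 and 62.2 to 88.3 CPM at P0. Their part in its values was not tested. Calb2 (calretinin) was at 32.4 ± 2.27 and 70.7 ± 11 CPM.

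Of 28 neuropeptide and granin genes 8 were called higher (median log2 fold change 0.88), 3 on the axon scale, and of 34 receptors 10 (1.03), again 3 on the axon scale. Vgf, a granin-like precursor, was at 10.3, 16.7, 19.3 and 6.75 CPM at E16 and at 88.3, 92.9, 113.2 and 37.6 CPM at P0 (log2 fold change 2.69, SE 0.426, adjusted p 0.000357). Nts (neurotensin) was at 7.17 to 8.82 CPM at E16 and at 20.8, 19.3, 21.9 and 70.3 CPM at P0, and Cck (cholecystokinin) was at 8.97, 8.0, 8.33 and 21.2 CPM at P0. P0 library 4, which held the forebrain transcripts, was the highest for both, and their part in the rise was not tested. Sst, Vip, Scg2, Calcb and Trh rose with log2 fold changes of 1.37 to 2.33. The receptors with the largest rise were Ntsr2, Hcrtr1 and Oprk1, with log2 fold changes of 3.81, 2.59 and 2.02.

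Of 19 genes of cholinergic and monoaminergic neurons 3 rose (5 without P0 library 4), and on the axon scale none was higher and 1 was lower. Ache (acetylcholinesterase) went from 14.2 to 33.2 CPM to 47.5 to 130.7 CPM (log2 fold change 1.98). Tph2 and Slc6a4, the serotonin-synthesising enzyme and the serotonin transporter of the raphe nuclei, which lie beside the SOC, had log2 fold changes of 1.59 and 1.58. Chat, the enzyme that makes acetylcholine in olivocochlear and motor neurons, was at 1.74 ± 0.575 and 4.2 ± 1.23 CPM and was not called.

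The 20 genes of oligodendrocyte precursors moved in both directions, with 7 called higher and 3 lower, and 3 each way on the axon scale. Neu4, a sialidase, was at 0.231 to 0.396 CPM at E16 and 3.33 to 5.67 CPM at P0 (log2 fold change 4.00, adjusted p 1.61e-07). Gpr17 and Bcas1, of precursors on the way to myelination, had log2 fold changes of 2.23 and 2.18. Pdgfra, the receptor that defines precursors, was at 323.7 ± 37.6 CPM at E16 and 247.4 ± 7.95 CPM at P0 (log2 fold change -0.35), and Sox10 was at 21.6 ± 7.75 and 25.2 ± 12.1 CPM. Olig1 and Olig2 had log2 fold changes of 1.29 and 1.20 and were not called. The 3 that fell, Matn4, Cspg4 and Vcan, encode matrix or surface proteoglycans or matrilins that tissues outside the brain also make, and Matn4 was at 162.3 ± 37.1 CPM at E16 (log2 fold change -4.65).

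Of 30 genes of oligodendrocytes and myelin 10 were called higher and 1 lower, and 6 and 1 on the axon scale. Without library 4 of both ages the counts were 15 and 1. Mag, a myelin adhesion protein, went from 3.55 to 6.46 CPM to 13.6 to 39.9 CPM (log2 fold change 2.43, adjusted p 5.15e-05), and Mbp from 33.5 to 59.5 CPM to 94.9 to 231.5 CPM (log2 fold change 1.92). Pllp rose most (log2 fold change 3.27), but a gene of the opposite strand covers 54.2% of its exons, and whether strand was used in counting is not given in the sources used here.

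E16 library 4 stood out in these genes. Mobp was at 0.141, 0.231, 0.0879 and 17.8 CPM at E16 and at 19.2, 19.5, 33.9 and 12.9 CPM at P0. It was not called, and its value in E16 library 4 lay within the P0 range. With E16 library 4 left out, Mobp had a log2 fold change of 7.13. Mog, of compact mature myelin, was listed at 0 in libraries 1 to 3 of both ages through the joined table and was at 1.16 CPM in E16 library 4 and 0.794 CPM in P0 library 4. For comparison, Mbp stood at 12277 CPM at P16.

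Of 22 microglial genes 4 were called higher and 2 lower, against 1 and 2 on the axon scale. The homeostatic receptors P2ry12, P2ry13, Gpr34 and Siglech rose with log2 fold changes of 1.35 to 2.26, at P0 means of 4.26 to 16.3 CPM. Tmem119 and Olfml3 fell (log2 fold changes -2.43 and -1.6), and Tmem119 is also made by bone-forming cells, whose list fell in the same libraries. Of 24 genes of endothelium and pericytes 3 were higher and 4 lower, against 2 and 7 on the axon scale. Slco1c1, Slco1a4 and Ly6c1, transporters and a surface antigen of the blood-brain barrier, rose (log2 fold changes 1.91, 1.70 and 2.95), and Emcn, Itm2a, Anpep and Cdh5 fell (-2.02, -1.99, -1.58 and -1.36). The fallen numbered 2 without E16 library 2 or P0 library 4. Ly6c1 has near-identical neighbours, so its counts may be split among them.

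The matrix of perineuronal nets, which later surround neurons of the SOC, was divided evenly, with 4 of 13 genes higher and 4 lower (2 lower without E16 library 4). On the axon scale 1 was higher and 5 were lower, and the median moved from 0.35 to -0.17. Bcan and Tnr, made by glia of the brain, rose with log2 fold changes of 2.30 and 1.80, and Hapln4 (Bral2) rose from 0.328 to 1.11 CPM to 1.32 to 4.48 CPM. Acan (aggrecan) fell from 823.3, 621.2, 687.5 and 397.7 CPM to 5.71, 5.96, 9.97 and 3.55 CPM (log2 fold change -6.62, adjusted p 9.64e-08), and Hapln1 by 3.47 on the log2 scale. Acan and Hapln1 are also on the cartilage list, of which 16 of 18 genes fell. The cartilage part of Acan at E16 cannot be told apart from a neural part in these pieces.

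**Figure D4:**
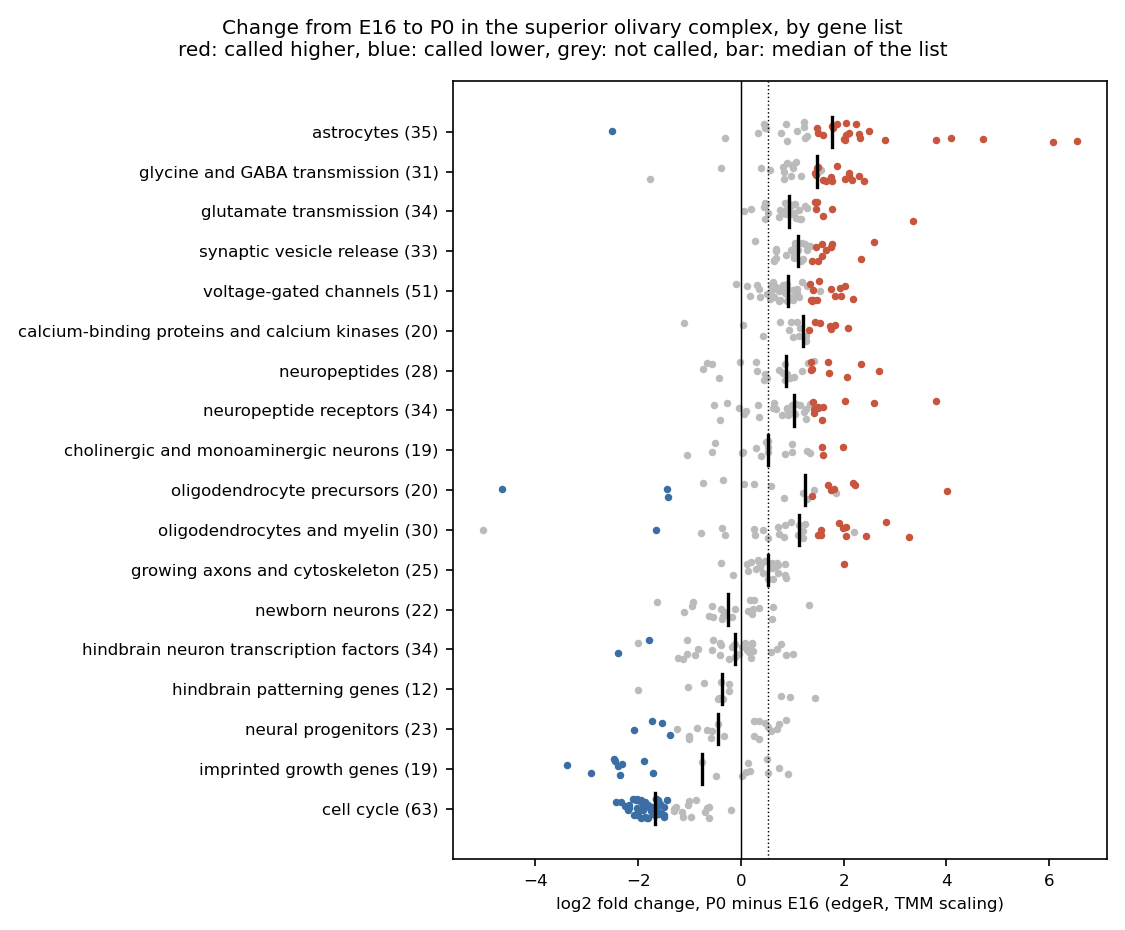
Log2 fold change from E16 to P0 (horizontal) of every tested gene of 18 lists, in red where called higher, in blue where called lower and in grey where not called, with the list's median as a bar and its number of tested genes in parentheses. The dotted line marks the median of the axon list, 0.53. Astrocyte genes had the highest median, 1.77, and cell cycle genes the lowest, -1.67.

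The genes that fell furthest belong to tissues outside the brain. Of the 174 genes of the 10 lists of other tissues 122 were called lower and 1 higher, and they made up 10.6% of all lower calls. Oc90, the main protein of otoconia in the inner ear, was at 288.6, 305.7, 304.7 and 254.5 CPM at E16 and at 0.192, 0.370, 0.620 and 0.189 CPM at P0 (log2 fold change -9.67, adjusted p 5.31e-09). Col2a1, the collagen of cartilage, was at 3187 to 7107 CPM and then at 5.86 to 44.4 CPM (log2 fold change -8.0). Actc1, Ckm and Myh3 of embryonic muscle fell by 9.04, 7.84 and 7.74 on the log2 scale, Ibsp of bone by 7.97, and Matn1 and Otor of cartilage and inner ear by 7.74 and 8.53. Of the muscle list 29 of 32 genes fell, of bone 12 of 14, of meninges and fibroblasts 20 of 25, and of the inner ear 13 of 20. These numbers were 29, 14, 21 and 14 on the axon scale.

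Embryonic globins fell as well. Hbb-y was at 31.9 to 42.9 CPM at E16 and 0.0378 to 0.324 CPM at P0, and Hbb-bs, an adult form, at 1049 to 2021 CPM and 103.3 to 227.9 CPM. Of 15 erythroid genes 11 fell, 13 on the axon scale. The globin genes of each cluster share sequence, so their counts may be split among them. The fall of these lists goes with the way the E16 pieces were cut, and a change within the tissue cannot be told apart from it.

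Among genes that stayed at 10 CPM or more in every P0 library, 233 were called lower. The largest falls in this group were those of the collagens Col11a2, Col11a1, Col12a1, Col9a3 and Col8a2, of Ttn and Postn and of Hbb-bt, all of connective tissue, muscle or blood. Among genes at 10 CPM or more in every E16 library, 172 were called higher, led by Aqp4, Apoe, Tuba4a, Vamp1, Gstm1, Slc6a7, Lynx1 and Syt2. Tuba4a, an alpha tubulin, went from 18.4 to 25.2 CPM to 80.2 to 162.6 CPM (log2 fold change 2.63), with 37.3% of its exons under a gene of the other strand. Lynx1, a brake on nicotinic receptors, went from 27.0 to 37.1 CPM to 90.2 to 194.1 CPM (log2 fold change 2.43). Slc6a7, a proline transporter of synapses, went from 12.2 ± 1.72 to 66.7 ± 19.1 CPM.

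Most cell cycle genes fell. Of 63 tested 48 were called lower and none higher, all 63 had a value below 0, and the median log2 fold change was -1.67. On the axon scale 57 were lower. Mki67, the Ki-67 antigen, was at 161.9, 225.4, 188.9 and 158.5 CPM at E16 and at 31.2, 52.0, 34.0 and 40.8 CPM at P0 (log2 fold change -2.17, SE 0.198, adjusted p 5.54e-06). E2f8, a repressor of the cycle, fell most (log2 fold change -2.42), from 6.15 ± 1.24 to 1.11 ± 0.289 CPM, and Ube2c, of the anaphase-promoting complex, from 19.7 ± 6.47 to 4.74 ± 1.48 CPM. Pcna, the replication clamp, was at 101.5 ± 9.23 and 64.3 ± 14.7 CPM and was not called (log2 fold change -0.62). Dividing cells of other head tissues would add to these genes at E16, and their part was not tested.

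Short motifs were counted in the promoters of the cell cycle genes, which the selection did not use. CCAAT, the box bound by NF-Y, and TTTGAA, the core of the cell cycle homology region, were searched on both strands in the window from 250 bases before to 50 bases after the start (RefSeq, GRCm38.p6). Of the 48 genes 39 had a promoter in the table. CCAAT was found in 29 of them (74.4%), TTTGAA in 25 (64.1%) and both in 21 (53.8%). Among the 52 promoters of all 63 tested genes of the list, fallen or not, the shares were 73.1%, 53.8% and 44.2%. Among 27025 promoters of all genes the shares were 41.1%, 20.2% and 7.97%. Of the 21 astrocyte genes that rose 17 had a promoter, with CCAAT in 7 (41.2%), TTTGAA in 4 (23.5%) and both in 2 (11.8%). A match describes these letters and shows no binding. The 250 bases before the start of E2f8 (chr7:48881597-48881846, minus strand), Mki67 (chr7:135716380-135716629, minus strand) and Ube2c (chr2:164769679-164769928, plus strand) are shown from 5′ to 3′ to let the spacing of both motifs be seen, with matches on either strand in capitals.
E2f8: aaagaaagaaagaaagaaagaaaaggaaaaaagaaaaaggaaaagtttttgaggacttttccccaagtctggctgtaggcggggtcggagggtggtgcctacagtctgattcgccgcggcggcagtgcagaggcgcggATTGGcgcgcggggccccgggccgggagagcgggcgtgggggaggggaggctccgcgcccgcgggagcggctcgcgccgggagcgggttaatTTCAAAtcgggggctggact
Mki67: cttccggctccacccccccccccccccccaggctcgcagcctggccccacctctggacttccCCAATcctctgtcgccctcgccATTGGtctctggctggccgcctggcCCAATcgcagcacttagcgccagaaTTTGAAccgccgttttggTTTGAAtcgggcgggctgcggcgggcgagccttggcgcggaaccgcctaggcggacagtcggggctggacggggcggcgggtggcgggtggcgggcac
Ube2c: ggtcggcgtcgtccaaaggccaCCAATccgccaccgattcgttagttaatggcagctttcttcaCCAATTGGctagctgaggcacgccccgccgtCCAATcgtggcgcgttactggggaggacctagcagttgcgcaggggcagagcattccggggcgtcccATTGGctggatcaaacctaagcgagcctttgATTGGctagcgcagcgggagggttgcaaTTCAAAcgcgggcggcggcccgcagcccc
Ube2c held 6 matches to CCAAT and 1 to TTTGAA, Mki67 3 and 2, and E2f8 1 of each. The windows shown were picked from called genes that hold both motifs there. That each holds both was thus fixed by the choice and says nothing about the list.

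Genes of neural progenitors and newborn neurons gave few calls. Of 23 progenitor genes 4 were lower (7 on the axon scale), Gli3, Nes, Hmgb2 and Vim, with log2 fold changes of -2.09, -1.73, -1.54 and -1.38. Nestin (Nes) went from 172.5 ± 50.9 to 50.2 ± 7.76 CPM, and it is also made by young muscle. Fabp7 of radial glia was at 760.3 ± 134.8 and 1227 ± 136.9 CPM and Sox2 at 58.0 ± 10.7 and 77.8 ± 5.33 CPM, neither called. None of the 22 newborn neuron genes was called by edgeR (8 had an unadjusted p under 0.05), 1 was called higher by DESeq2, and on the axon scale 2 were lower. Dcx (doublecortin) was at 234.1 to 602.8 CPM at E16 and 304.8 to 543.8 CPM at P0.

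Among 34 transcription factors of hindbrain neurons 2 were called lower, and 7 on the axon scale. The 2 made up 5.88% of the list, near the 6.92% of all genes tested, and are not read as a change of the list. Atoh1, the factor of the rhombic lip from which many cochlear and olivary neurons derive, fell from 10.6, 10.9, 12.8 and 6.58 CPM to 3.36, 3.84, 2.44 and 1.85 CPM (log2 fold change -1.79, adjusted p 0.000445). Atoh1 also serves the peripheral auditory system. Inner ear genes summed to 661.3 to 720.7 CPM at E16 and 91.2 to 131.6 CPM at P0, and their part in its fall was not tested. Hmx3 fell from 1.32 to 2.20 CPM to 0.265 to 0.355 CPM and is also a gene of the inner ear. Its call held without E16 library 4 and was lost without any other single library (adjusted p 0.0131 to 0.0325, edgeR). Of 25 genes of growing axons only Nefh, the heavy neurofilament, rose, from 28.9, 39.8, 47.8 and 28.2 CPM to 133.6, 163.9, 209.4 and 61.8 CPM (log2 fold change 2.01, adjusted p 0.000213). This is 4% of the list, near the 3.32% of all genes tested, and is not read as a change of the list. Nefh was not called on the axon scale, whose anchor includes it. Gap43 was at 591.2 ± 127.2 and 930.3 ± 99.9 CPM.

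Of 53 axon guidance genes 6 fell, 9 on the axon scale, and none rose. The 6 made up 11.3% of the list, against 6.92% of all genes tested, and are not read as a change of the list. Robo3, which lets commissural axons cross the midline, fell from 10.6, 16, 18.6 and 7.99 CPM to 1.63, 2.31, 1.24 and 1.40 CPM (log2 fold change -2.97, SE 0.389, adjusted p 8.6e-05). The relatives Robo1 and Robo2 had log2 fold changes of -0.35 and 0.30 and were not called. The others that fell were Efna1, Sema3d, Unc5b, Efnb1 and Slit3. What part other head tissues at E16 had in the falls of this list was not tested.

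Imprinted genes of fetal growth divided in their behaviour. Of 19 tested 9 fell and none rose, on both scales. H19, a long non-coding RNA, was at 2469, 2269, 2455 and 1851 CPM at E16 and at 259.4, 234.6, 196.3 and 152.6 CPM at P0 (log2 fold change -3.39, SE 0.292, adjusted p 3.8e-06), and Igf2, its neighbour, went from 549.9 ± 61.8 to 107.7 ± 24.7 CPM. Plagl1, Grb10, Dlk1, Cdkn1c, Mest, Igf2r and Peg10 fell by 1.72 to 2.92 on the log2 scale. Among the members that were not called were Peg3 at -0.77, Ndn at 0.14 and Meg3 at 0.91. Connective tissue and muscle make many of the genes that fell, and their part in the fall was not tested.

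The fetal RNA-binding proteins Igf2bp1, Igf2bp2 and Igf2bp3 and the chromatin protein Hmga2, targets of the let-7 microRNA family, fell by 1.86 to 3.35 on the log2 scale. Igf2bp1 was at 35.8, 39.4, 32.0 and 24.9 CPM at E16 and at 2.64, 3.38, 2.44 and 4.01 CPM at P0. They were 4 of 11 tested on this list, and no other member was called. Genes of other head tissues fell in the same libraries, and their part in these falls was not tested.

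Genes that follow hormones were called in part. Of 18 genes that glucocorticoids induce, 5 rose and 1, Hif3a, fell (log2 fold change -1.41), a call that was lost without any single library but P0 library 3 (adjusted p 0.012 to 0.0329, edgeR). The metallothioneins Mt1 and Mt2, which bind zinc, rose from 7.00 ± 1.76 to 73.1 ± 26.1 CPM and from 1.68 ± 0.958 to 19.5 ± 10.2 CPM, with 73.5% of the exons of Mt2 under a gene of the other strand. Fkbp5 and Tsc22d3, on the same list, were not called. The axon scale left 2 higher and 1 lower. Of 12 genes of thyroid hormone signalling 4 rose and 1 fell, and on the axon scale 2 went each way. Klf9, which both glucocorticoids and thyroid hormone induce, was at 9.28 to 10.7 CPM at E16 and 24.6 to 31.6 CPM at P0 (log2 fold change 1.55, adjusted p 1.92e-06). Crym, which binds thyroid hormone, fell from 88.4 to 108.3 CPM to 5.85, 5.22, 5.10 and 38.1 CPM, with P0 library 4 far above the others. Its log2 fold change was -2.79 and -4.15 without P0 library 4, and the call was lost without P0 library 1, 2 or 3 (adjusted p 0.0119 to 0.0135, edgeR). None of 22 genes of cholesterol synthesis and none of 17 genes of ketone and fatty acid oxidation was called by edgeR or by DESeq2, while 4 and 8 had an unadjusted p under 0.05 and 1 of the second list was lower on the axon scale.

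The same step was compared with that of the cochlea in a test of the difference itself, where the organs also differ in mouse substrain, laboratory and library kit. Of 15773 genes tested 655 changed more positively in the SOC (4.15%) and 1320 more negatively (8.37%). Of the astrocyte list 9 of 34 genes passed in the first direction and 3 in the second. Of the glycine and GABA list these numbers were 9 and 1 of 25, of the voltage-gated channels 17 and 0 of 51, and of vesicle release 9 and 0 of 33. The cell cycle list gave 1 and 1 of 63, with a median log2 fold change of -1.3 in the cochlea, where its genes were thus also lower at P0. Cartilage gave 0 and 13 of 15 and muscle 0 and 20 of 22. The SOC pieces of E16 held such tissues, and their part in the more negative changes, that of H19 included, was not tested. Gfap passed with a difference of 5.70 on the log2 scale (adjusted p 2.37e-06, edgeR), Vamp1 with 1.77 (9.69e-05) and H19 with -3.55. Thy1, a surface protein of neurons, had a log2 fold change of 3.20 in the SOC. Its difference from the cochlea was 0.08 (SE 1.18, adjusted p 0.964, edgeR). The SE was 0.286 for Vamp1, and with the wide spread of Thy1 the test cannot show that its changes were alike.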

How the data were processed

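RNA of the SOC was sequenced as paired reads of 100 bases. Reads were aligned with STAR 2.5.3a to mm10 with GENCODE genes, and the authors deposited raw counts per gene in joined tables. The submitters' notes also list HTSeq and DESeq2. Whether counting used strand is not given in the sources used here. The members and gene lists were chosen with earlier results of these data known.

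From the deposited counts, edgeR 4.0.16 (R 4.3.3) was fitted with TMM factors and a quasi-likelihood test over the 11 SOC libraries, after a filter of more than 0.5 CPM in at least 3 libraries of an age. The difference from the cochlea was an interaction over 20 libraries. DESeq2 1.42.0 served alternatives, and limma was at version 3.58.1. Scaling to the axon list was chosen after seeing the data. Same-numbered E16 and P0 libraries deviated together (correlations 0.471 to 0.749 over 12383 genes over 5 CPM, other pairs -0.708 to 0.62). E16 library 2 correlated more with P0 library 3 (0.542) than with P0 library 2 (0.471). E16 library 3 correlated more with P0 library 2 (0.62) than with P0 library 3 (0.496). By the data the best match thus had the same number for libraries 1 and 4 alone. No replicates were duplicates (mean chi-square per gene 9.77 to 108.9). Named genes were the 8 largest changes each way at 20 CPM or more, the 8 largest at 10 CPM or more in every library of the lower age, the 5 most abundant, up to 6 called genes per list, and uncalled list members given with values. Some named genes are not reported here. The scripts were tested on simulated data.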

Additional observations from a re-analysis of the deposited data

Results flagged for a closer look

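With 4 libraries an age, a library stood apart when its gap to the nearest other library exceeded Dixon's critical share of the range of that age, which chance flags in about 1 in 20 groups. Many genes and lists were screened in this way, so some of the items would be flagged by chance, and which ones was not tested. Each item is followed by the library's value, the range of the other libraries and the gap as a share of the range. P0 library 4 was above the other libraries of its age in Neurod6 (155.1 against 18.3 to 24.3 CPM, 0.956) and Slc12a2 (126.4 against 89.3 to 93.4 CPM, 0.889). The same held for Grm5 (504.6 against 374.3 to 390.0 CPM, 0.879), Nts (70.3 against 19.3 to 21.9 CPM, 0.949), Cck (21.2 against 8 to 8.97 CPM, 0.926) and Vcan (218.0 against 121.9 to 137.1 CPM, 0.842). The same held for Dcx (543.8 against 304.8 to 340.3 CPM, 0.852), Robo2 (331.6 against 244.8 to 252.4 CPM, 0.913) and Crym (38.1 against 5.1 to 5.85 CPM, 0.977). P0 library 4 was below the other libraries of its age in Aldh1l1 (123.4 against 203.5 to 218.5 CPM, 0.842), Syngr1 (126.7 against 209.2 to 222.7 CPM, 0.86), Matn4 (3.44 against 7.12 to 7.53 CPM, 0.899) and Lynx1 (90.2 against 177.6 to 194.1 CPM, 0.841). The same held for the sum over the list of hypoxia and glycolysis (3251 against 4529 to 4581 CPM, 0.961). E16 library 4 was above the other libraries of its age in Mobp (17.8 against 0.0879 to 0.231 CPM, 0.992) and Oprk1 (4.13 against 2.64 to 2.81 CPM, 0.883). The same held for Col12a1 (1281 against 991.6 to 995.8 CPM, 0.985) and the sum over the list of oligodendrocytes and myelin (628.4 against 454.8 to 478.2 CPM, 0.866). E16 library 4 was below the other libraries of its age in Syp (71.1 against 90.6 to 94.4 CPM, 0.838), Tmem119 (27.4 against 33.5 to 34.5 CPM, 0.861), Hmgb2 (37.6 against 63.5 to 68.6 CPM, 0.837) and Efnb1 (38.9 against 75.0 to 82.4 CPM, 0.831). The same held for Erbb3 (36.9 against 55.1 to 58.4 CPM, 0.848), the sum over the list of perineuronal net matrix (2188 against 2629 to 2715 CPM, 0.837) and the sum over the list of peripheral glia (166.6 against 225.0 to 231.3 CPM, 0.902). E16 library 1 was above the other libraries of its age in Actc1 (153.5 against 74.7 to 82.4 CPM, 0.902) and Myh3 (448.3 against 262.6 to 282.7 CPM, 0.892). E16 library 2 was above the other libraries of its age in Prlr (3.46 against 1.69 to 1.93 CPM, 0.861). P0 library 1 was above the other libraries of its age in Hbb-bt (25.2 against 13.2 to 13.8 CPM, 0.944). P0 library 1 was below the other libraries of its age in Gria4 (271.0 against 285.5 to 287.8 CPM, 0.86).

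The change from E16 to P0 differed between the SOC and the cochlea, by the test of the difference itself, for Gfap (5.70 on the log2 scale), Vamp1 (1.77) and H19 (-3.55). Organ, laboratory and kit cannot be told apart in this comparison, and the part of other head tissue in the SOC pieces of E16 was not tested.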

How the results depend on the processing

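Requiring the fold change itself to exceed 2.5 (glmTreat) left 75 genes higher and 437 lower, and 83 and 523 for the difference from the cochlea, since this test asks for more than a fold estimate over the threshold. Scaling to the axon list, chosen after the data were seen, gave 187 and 2098. With the replicate block, which pairs the same-numbered libraries, 582 genes were higher and 1213 lower (584 and 1220 with GC-adjusted offsets), and it changed the call of no gene named in the report; in the lists it moved a count by over 1.5 times for forebrain (1 lower in place of none), pituitary (1 higher in place of none) and interferon (2 higher in place of 1). Leaving out each library in turn gave 459 to 673 higher and 1009 to 1212 lower, and 563 to 779 and 1091 to 1475 for the difference from the cochlea. The upper value of 673 was without P0 library 4: of the 157 genes added, that library was the lowest P0 library in 152. The other alternatives kept these counts within 1.5 times.

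On the axon scale the direction turned for uncalled genes: Gja1 was at -0.045, Slc17a8 at -0.34, Gria3 at -0.051, Sox10 at -0.27, Sox2 at -0.065, Robo2 at -0.23, Ndn at -0.38, Fkbp5 at -0.29 and Tsc22d3 at -0.33. Leaving out each library gave -0.003 (without P0 library 3) to 0.521 for Sox10. Leaving out 1 library ended the call of 8 to 14 of the named genes, among them Cspg4, Anpep, Slit3, Cck, Vip, Sst, Syn1, Kcna2, P2ry12, P2ry13, Cdh5, Vcan and Vim. At this depth a gene listed at 0 may hold up to 20 counts.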

Other observations

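Of 17 immediate early genes 2 were called each way, and on the axon scale none was higher and 4 were lower. Among them, Fos and Arc, which neurons induce with activity, were called higher (log2 fold changes 1.34 and 1.32), and Cyr61 and Klf4, which connective tissue and vessels also express, were called lower (-2.73 and -1.84). Cyr61 was at 21.6, 20.7, 19.9 and 17.4 CPM at E16 and at 2.69, 2.27, 3.77 and 2.91 CPM at P0. The calls of Fos and Arc were both lost without E16 library 4, P0 library 2 or P0 library 3.

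Among 15 clock genes Nr1d1 (REV-ERB alpha) rose (log2 fold change 2.29, adjusted p 0.00701, edgeR), at 0.0860 to 0.877 CPM at E16 and 0.960 to 4.47 CPM at P0; times of day at collection were not used here. Among 19 interferon and MHC genes Ifit3 rose (log2 fold change 2.20). Of 25 genes of hypoxia and glycolysis P4ha1, a collagen prolyl hydroxylase, fell (-1.99). Of 15 cerebellar genes Car8 and Cbln3 rose (1.82 and 1.79), with Car8 at 14.6 to 21.9 CPM and then 55.6 to 65.4 CPM. Of 14 choroid plexus genes Prlr rose and Aqp1 and Calml4 fell. The shares called higher were 6.67% (clock), 5.26% (interferon), 13.3% (cerebellar) and 7.14% (choroid plexus), against 3.32% of all genes. Those called lower were 4% (hypoxia) and 14.3% (choroid plexus), against 6.92%. Calls this few in short lists are not read as changes of the lists. The calls of Nr1d1, Ifit3, Prlr and Calml4 were each lost without some single libraries, and that of Cbln3 without any single library. Sensory ganglion genes fell in 4 of 13 cases, peripheral glia in 2 of 13 (Erbb3 and Ncmap), neutrophil genes in 3 of 4 and surface epithelium in 12 of 20. On the axon scale these were 6, 4, 3 and 14, the hypoxia list had 4 lower, the choroid plexus list 3 lower, the interferon list 1 lower, and none of the clock, interferon, cerebellar and choroid plexus genes was higher.

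Of 19 ependymal genes none was called by edgeR without a block, while 8 had an unadjusted p under 0.05, DESeq2 called 0, and 1 was lower on the axon scale or without P0 library 1, 2 or 4, 2 without E16 library 4 and 5 without library 4 of both ages. Of 7 pituitary genes none was called by edgeR without a block, while 3 had an unadjusted p under 0.05. In that list 1 was higher by DESeq2, with the replicate block, without P0 library 2 or 4 and under several other alternatives, and 1 was lower on the axon scale.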
